A study of Homo sapiens with 12 samples.

Results

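Tumour material of the human melanoma line WM1366 from the group named R1 was compared with its control group, with 4 RNA sequencing libraries in each of these groups. All 12931 rows of 1 gene each were used, and the 8 libraries are part of a series of 12, in which the 4 libraries of a further group, R2, served here only for the estimate of spread. WM1366 is an established cutaneous melanoma line with an activating NRAS mutation. The series text describes xenografts that were progressing when sampled. R1 carries the label of a diet with MEK and CDK4/6 inhibitors, and the control group that of a control diet. The protocol text of every sample, control included, also names cells grown in medium and exposure to palbociclib at 0.1 uM, a CDK4/6 inhibitor, and PD0325901 at 1 nM, a MEK inhibitor. What separates R1 from R2 is not given, nor whether the 4 libraries of a group come from separate tumours or cultures, so p-values measure only the spread between these libraries. A single cell line is a limit of the model, and in a xenograft the host supplies vessels and stroma. How reads of the host were treated is not given in the sources used here.

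MEK passes the signal of RAS and RAF proteins on to ERK, which drives transcription of growth genes and of its own feedback inhibitors. Cyclin D with CDK4 or CDK6 phosphorylates RB and so lets cells enter S phase. Melanomas that grow on in spite of drugs against these kinases are known to change their surface receptors, matrix and lineage programmes as well as the kinase cascade itself.

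Values are the authors' normalised read counts, and they are comparable between libraries for a given gene. Their scaling equals library size adjusted by the trimmed mean of M-values (TMM) factors of edgeR, up to a constant. A gene is said to rise or fall where limma gave a Benjamini-Hochberg adjusted p under 0.05 over all rows, and log2 fold changes are R1 minus control on log2(value + 0.5). Recovered reads in the listed genes numbered 21456002 to 39009384 in R1 and 20003891 to 25229531 in control. Pearson correlations of the log2 values were taken over rows with a mean of at least 5. They were 0.952 to 0.986 between R1 libraries, 0.974 to 0.995 between control libraries and 0.880 to 0.920 between the groups. On the first principal component of the 8 libraries over all rows, with 70% of the variance, R1 lay at -46 to -39.5 and control at 41.4 to 43.3. The next component, with 14.9%, placed R1 replicate 2 at -40.1, with control replicates 3 and 4 on the same side at -15.7 and -12.3. The other R1 libraries lay at 5.13 to 18 and control replicates 1 and 2 at 18.2 and 9.92. R1 replicate 2 therefore stands apart from its group. Counts over all rows are given with and without it, as are some of the lists and genes named.

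In R1 2900 genes rose (22.4% of the rows tested) and 2767 fell (21.4%), with a median log2 fold change of 0.01 over all rows. Changes over 2-fold numbered 699 rises (5.41%) and 662 falls (5.12%). Without R1 replicate 2 the counts were 3020 (23.4%) and 2857 (22.1%). Of the 5667 genes called with all libraries, 5187 were called in the same direction without that library, and 0 in the opposite direction. Of the 1361 changes over 2-fold, 1343 were also called without it. In 1311 of them all 4 R1 libraries, replicate 2 included, lay beyond every control library on the same side. Leaving it out ended the call of 263 rises and 217 falls, and added 383 rises and 307 falls. All 4 R1 libraries lay above every control library in 20.8% of the rows and below in 19%. Most genes named were chosen for the size of their change, and the largest changes also for ranges that do not overlap, so a lack of overlap in a named gene describes it and supports nothing. All 12931 rows exceeded 1 cpm (reads scaled to library size) in at least 4 libraries. G0S2 and KIF21B were under 1 in control and R2, so they have rows only through R1. MYH10 and GDA were under 1 in R1 and R2, so they have rows only through control. A lack of overlap in such genes follows from their being listed. Counts of list members that rose or fell are to be read against the 22.4% and 21.4% of all rows. The plot of both fold changes shows that the larger changes had close values with and without it.

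**Figure D1:**
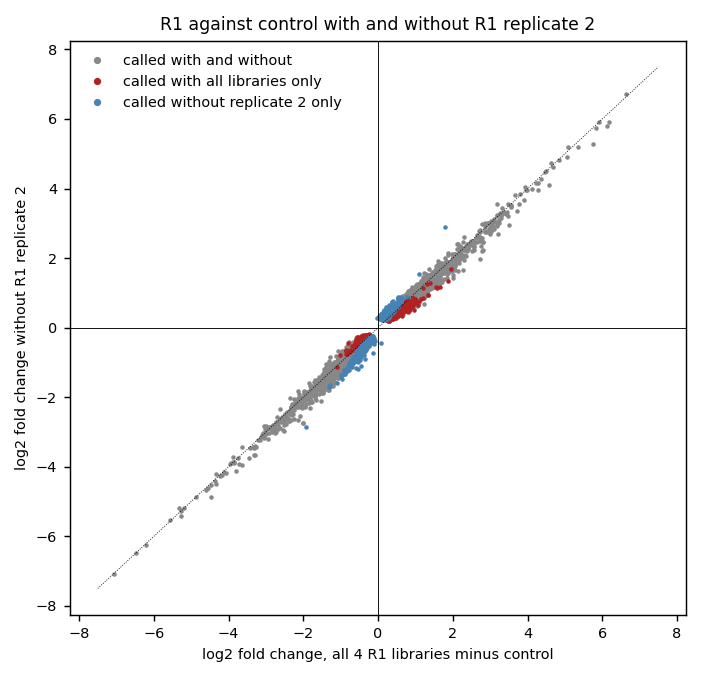
Each point is a gene called in at least 1 of the fits, with its log2 fold change from all 4 R1 libraries on the x axis and without R1 replicate 2 on the y axis; the dotted line marks equal values. Grey points (5187 genes) were called both ways, red points only with all libraries, blue points only without replicate 2, and most calls that were lost or gained lie close to the origin, with TXNIP (2.89 without replicate 2) and C3 (-2.87) farther out.

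The lineage of the tumours was checked on the melanocyte and melanoma markers, of which 10 of 20 were measured. SOX10, MLANA, TYR and DCT had no row, and may be genes with few reads. Of the 10 measured markers 3 rose and 5 fell. PMEL, the fibril protein of melanosomes, stood at 22.4, 35.7, 27.2 and 23 in R1 replicates 1 to 4 and at 4.05, 4.83, 6.72 and 5.67 in control, a log2 fold change of 2.24 (SE 0.21, adjusted p = 1.5e-06). CSPG4, a surface proteoglycan of melanoma, rose by 1.65 (adjusted p = 0.00191). MITF, the master factor of melanocytes, was at 26.9, 29.1, 15.3 and 22.7 against 60, 56.2, 43.1 and 42.1 (-1.11, adjusted p = 0.00022), and RAB27A, which moves melanosomes to the cell edge, fell slightly (-0.44, adjusted p = 0.00663). PAX3, an upstream lineage factor, was at 10.3 to 15 in R1 and 9.48 to 12.4 in control and did not pass the test (0.23, adjusted p = 0.176). Melanocytic genes were therefore not shifted one way. Among 23 measured antigens normally kept to the germ line, 8 rose and 5 fell. PRAME (1.43, adjusted p = 2.1e-06) and CTAG2 (1.02, adjusted p = 0.0001) were among the rises, and SSX1 fell from 6.15 to 8.3 in control to 0.194 to 0.432 (-3.22, adjusted p = 1.2e-07).

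Markers of other cells were measured only in part, and those without a row may be genes with few reads. Of the endothelial markers, 6 of 15 were measured, and CDH5, KDR and TEK had no row. Their summed value was 492 to 654 in R1 and 215 to 260 in control. TIE1, an endothelial receptor kinase, accounted for most of it, at 357, 474, 379 and 364 against 131, 127, 160 and 136 (1.5, adjusted p = 3e-07). EGFL7, a vessel matrix factor (2.03, adjusted p = 1.3e-06), VWF (1.15, adjusted p = 0.00165) and ROBO4 (0.85, adjusted p = 0.00077) rose as well, while PECAM1, the general vessel marker, was at 1.55 to 4.96 in R1 and 0.842 to 3.96 in control (0.15, adjusted p = 0.744), and ENG, endoglin, was at 38.5 to 56.2 against 30.5 to 36.3 and did not pass (0.54, adjusted p = 0.0812), though it did with R1 and control libraries alone in the fit (adjusted p = 0.00753). Leukocyte markers were represented by 1 of 20 genes, CSF1R, at 1.39 to 6.19 in R1 and 1.12 to 3.18 in control, which did not pass; PTPRC was not analysed here. In fibroblast markers, 6 of 14 measured, the summed value was 514 to 670 in R1 and 627 to 741 in control; 1 rose and 1 fell. Both measured keratinocyte genes, SFN (1.76) and KRT10 (0.65), rose, with a summed value of 25.5 to 39.9 against 16.8 to 19.3. In such bulk libraries more cells of a type and more RNA per cell cannot be told apart.

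The RAS pathway was the route targeted by the MEK inhibitor, and 13 of its 52 measured genes rose while 10 fell, shares near the 22.4% and 21.4% of all rows. NRAS, which is mutated in this line, was at 951, 849, 1005.0 and 1109.1 in R1 and 135, 134, 108 and 127 in control, a log2 fold change of 2.95 (SE 0.13, adjusted p = 6.2e-10). The ranges did not overlap. BRAF, a kinase between RAS and MEK, was at 20.2 to 31.8 in R1 and 22.2 to 29.2 in control (-0.01, adjusted p = 0.96).

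Feedback genes of ERK did not move as 1 block either. DUSP5, a phosphatase that acts on ERK in the nucleus, was at 443, 456, 735 and 579 in R1 and 144, 102, 320 and 272 in control (1.51, adjusted p = 0.0007). DUSP2, another nuclear phosphatase, was at 2.1 to 2.76 in R1 and had 1 read in all 4 control libraries together, a ratio of pooled reads of 220 with a 95% counting interval of 39.2 to 8724.3. The scaffold KSR1 rose too (1.31, adjusted p = 8.4e-05). In contrast SPRY1, an inhibitor of receptor signalling, fell (-1.03, adjusted p = 0.00272), although its relative SPRY4 rose (1.30, adjusted p = 4e-05). IER3, an early ERK target, was at 192, 533, 380 and 283 against 562, 560, 1055.4 and 935 (-1.20, adjusted p = 0.00594). DUSP1, a stress-induced phosphatase, fell with overlapping ranges (-1.21, adjusted p = 0.0373). That call was lost without R1 replicate 1, 3 or 4 or without control replicate 3 or 4, and in the fit of R1 and control alone (adjusted p up to 0.12).

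Receptor tyrosine kinases and growth factors tended the other way, with 5 rises and 17 falls among 39 measured (median log2 fold change -0.30 against 0.01 over all rows). GFRA1, a co-receptor of RET, was at 4.83, 3.25, 1.63 and 1.92 in R1 and 84.3, 71.5, 76.1 and 76.4 in control (-4.60, adjusted p = 2.9e-09). NRG1, a ligand of ERBB3, was at 9.25, 12, 8.77 and 9.55 against 48.5, 40.5, 33.4 and 33.7 (-1.92, adjusted p = 2.6e-05). MERTK (-2.19, adjusted p = 3.2e-07), AXL (-0.95, adjusted p = 4.4e-05) and EGFR (-0.78, adjusted p = 0.00125) fell. The few rises included AREG, a ligand of EGFR, at 35.3, 53.6, 37.5 and 31.4 against 6.81, 8.68, 15.4 and 16 (1.76, adjusted p = 0.00021). HBEGF, another EGFR ligand (0.95, adjusted p = 0.00341), and the receptor FGFR1 (0.92, adjusted p = 0.00301) rose as well. Both of these EGFR ligands were thus higher and EGFR itself lower in R1.

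In the CDK4/6 arm CCND1 and the CDK inhibitor gene CDKN1A rose, while the inhibitor gene CDKN1B fell. Of 26 measured genes of cell cycle brakes and senescence 8 rose and 7 fell. CCND1, cyclin D1, was at 629, 382, 591 and 579 in R1 and 309, 326, 207 and 232 in control (1.02, adjusted p = 0.0004), and its partner CDK4 rose by 0.61 (adjusted p = 0.00171). CDK6 was at 40.9 to 70.6 against 46.3 to 65.8 (0.01, adjusted p = 0.955). CDKN1A, which codes for the CDK inhibitor p21, was at 41.6, 76.3, 65.9 and 60 against 8.74, 12.6, 16.7 and 15.8 (2.15, SE 0.36, adjusted p = 0.00029). All 4 R1 libraries were above control for CDKN1A. CDKN1B, the inhibitor p27, fell by 0.75 on the log2 scale (adjusted p = 0.00037).

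TNFRSF10B, a death receptor, was at 145, 213, 161 and 168 in R1 and 66.2, 76.2, 77.4 and 77.7 in control (1.19, adjusted p = 3.9e-06). PLK2, a kinase of the stress response, was at 66.2, 41.6, 65.2 and 67 against 194, 149, 153 and 152 (-1.44, adjusted p = 2.9e-05). The BCL2 family and caspases, which decide on cell death, had 15 rises and 2 falls among 39. BIK, a killer protein of the BH3 class, had 3 reads in the control group and was at 2.59 to 3.53 in R1 (ratio of pooled reads 92, 95% counting interval 31.2 to 448). BCL2A1, a survival protein, was at 9.61, 16.5, 9.83 and 7.91 against 1.28, 1.25, 1.09 and 1.42 (2.65, adjusted p = 9.5e-06). BMF, another killer of the BH3 class, was at 1.16 to 2.46 against 8.6 to 15.7 (-2.46, adjusted p = 8.8e-06).

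Genes of DNA replication and mitosis depended on R1 replicate 2 in their rises, and less in their falls. With all libraries, 2 of 50 replication genes rose and 13 fell, and 0 of 40 mitosis genes rose and 8 fell; by edgeR and DESeq2, and by limma at an unadjusted p under 0.05, the mitosis rises were 0 as well. Without replicate 2, 10 rose and 10 fell in the first list, and 12 rose and 7 fell in the second. Of the 13 and 8 falls, 10 and 7 were called in both fits. The mean log2 level of the mitosis genes was 6.60, 5.55, 6.60 and 6.70 in R1 replicates 1 to 4 and 6.76, 6.61, 6.53 and 6.56 in control. The same score for replication genes was 6.15, 5.35, 6.15 and 6.12 against 6.34, 6.29, 5.99 and 6.00. In both lists replicate 2 was the lowest of the 8 libraries and the other R1 libraries lay near control. CCNB1, the mitotic cyclin B1, was at 256, 102, 345 and 316 against 205, 180, 162 and 163, and its log2 fold change went from 0.39 (adjusted p = 0.287) to 0.78 (adjusted p = 0.00041) without replicate 2. HMMR, a spindle protein, changed in the same way from 0.21 (adjusted p = 0.589) to 0.58 (adjusted p = 0.0278).

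Most of the replication and mitosis falls were called with and without that library. FOXM1, which activates late cell cycle genes, was at 219, 109, 246 and 242 in R1 and 579, 532, 441 and 418 in control (-1.33, adjusted p = 0.00026, and -1.05 without replicate 2). AURKB, the kinase of chromosome alignment, was at 48.8, 21.3, 71.1 and 56.9 against 132, 116, 113 and 96.4 (-1.31, adjusted p = 0.0014, and -0.96 without). PLK1 (-1.13 and -0.82), CHAF1B (-1.27 and -1.04), CDCA3 (-1.29 and -0.84) and GINS2 (-0.97 and -0.66) fell in both fits. ASF1B, a histone chaperone, rose in both (0.73 and 0.94). MKI67, the marker of cycling cells, was at 212 to 362 in R1 and 279 to 466 in control and did not pass in either (adjusted p = 0.187 and 0.421).

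**Figure D2:**
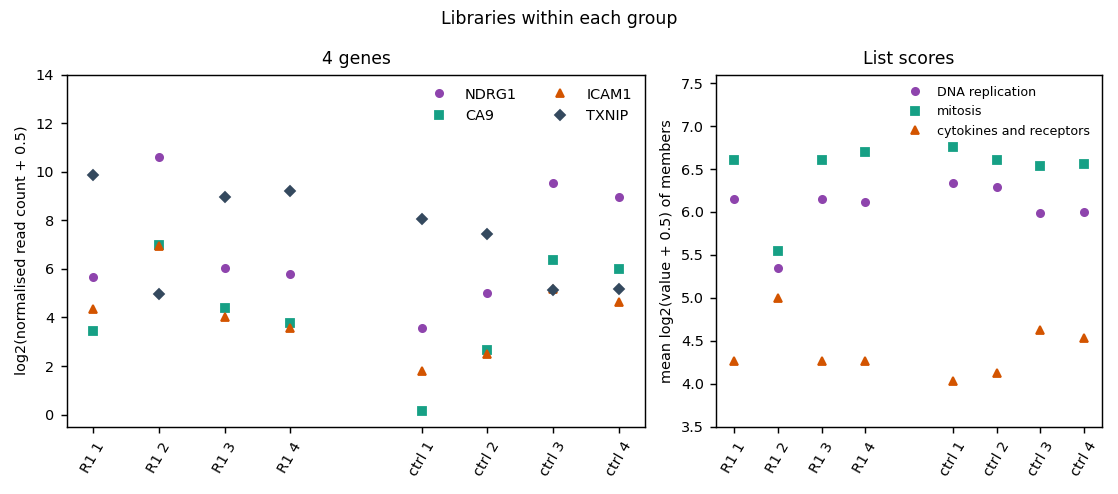
The left panel gives log2(normalised read count + 0.5) of NDRG1, CA9, ICAM1 and TXNIP in each R1 and control (ctrl) library, and the right panel the mean log2(value + 0.5) of the members of 3 lists. R1 replicate 2 and control replicates 3 and 4 lie above the other libraries in NDRG1, CA9 and, by a narrow gap, ICAM1. They lie below them in TXNIP, and R1 replicate 2 is lowest in the replication (5.35) and mitosis (5.55) scores.

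R1 replicate 2 stood apart in several genes that also split the control group; the first 3 below and TXNIP were chosen because that library lay far from the other R1 libraries in them. NDRG1, a gene induced by low oxygen, was at 50.1, 1540.4, 64.2 and 54.6 in R1 and at 11.4, 32, 744 and 499 in control. CA9, the carbonic anhydrase of hypoxic tumours, was at 10.5, 127, 20.7 and 13.3 against 0.601, 5.88, 82.9 and 63.5. ICAM1, an adhesion molecule induced by inflammatory signals, was at 19.9, 121, 15.5 and 11.5 against 3.01, 5.06, 35.2 and 24.5. In all 3 genes R1 replicate 2 and control replicates 3 and 4 were above the other 5 libraries. For ICAM1 the split was narrow, with control replicate 4 (24.5) close to R1 replicate 1 (19.9). TXNIP, which glucose induces and which blocks thioredoxin, was the mirror image, at 920, 30.8, 494 and 596 against 266, 173, 34.4 and 35.6. The group means of NDRG1, CA9, ICAM1 and TXNIP did not pass the test with all libraries (adjusted p = 0.894, 0.57, 0.216 and 0.204). Without R1 replicate 2, TXNIP rose (2.89, adjusted p = 0.0225), while C3, the central complement protein (-2.87, adjusted p = 0.00082), and HSPA1A, the inducible HSP70 (-1.19, adjusted p = 0.00138), fell. Among rows with a mean of at least 5, R1 replicate 2 exceeded the mean of the other R1 libraries more than 2-fold in 249 and lay more than 2-fold under it in 115. For the other 7 libraries within their groups these counts were 2 to 61 and 2 to 90. The state that these genes mark was not annotated in the labels, and its part in the group comparison was not tested beyond leaving out libraries.

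Of the 480 calls lost without R1 replicate 2, 5 are described here. VGF, a secreted neuropeptide precursor, was at 104, 362, 84.3 and 57 in R1 against 12.5, 17.4, 69.8 and 61.4 in control, and went from 1.87 (adjusted p = 0.0324) to 1.33 (adjusted p = 0.0944) without it. IL1A, an inflammatory cytokine (1.55 to 1.18, adjusted p = 0.0813 without), CTSS, the cathepsin that trims the class II chaperone (1.34 to 0.94, adjusted p = 0.0711), and the interferon gene OAS2 (1.21 to 1.14, adjusted p = 0.0873) also lost their calls, as did FEZ1 (1.95 to 1.68, adjusted p = 0.0902). These 5 calls were also lost without some other single libraries, so none depended on R1 replicate 2 alone. Their direction stayed the same in every fit run.

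Matrix proteins held several of the largest rises. Of 58 measured genes 17 rose and 10 fell, or 13 and 15 without R1 replicate 2. The rises were led by components of the basement membrane, the sheet that laminins and type IV collagen form under epithelia and around vessels. LAMA4, the laminin alpha 4 chain, was at 64.2, 130, 62.7 and 62.8 in R1 and 0.441, 0.35, 0.729 and 0.735 in control, a log2 fold change of 6.18 (SE 0.27, adjusted p = 7.4e-10). LAMB3, a laminin beta chain of epithelial anchoring, was at 135, 480, 135 and 126 against 1.68, 2.8, 4.53 and 3.1 (5.76, SE 0.37, adjusted p = 3.7e-08). Without R1 replicate 2 its log2 fold change was 5.29. COL4A2 was at 42.9, 65.9, 77.7 and 81.6 against 1.92, 2.57, 2.92 and 2.26 (4.50, adjusted p = 0.00011). These 3 genes were chosen with ranges that do not overlap; R1 replicate 2 was the highest for both laminins. Its partner chain COL4A1 rose likewise (3.99, adjusted p = 3e-05). The collagen genes stand head to head on chromosome 13, at 110148963 to 110307233 and 110305812 to 110513209 (GENCODE on GRCh38), so reads from the stretch they share cannot be told apart. COL8A1, a short-chain collagen, was at 6.82, 11.2, 11.5 and 12.6 against 82.1, 64.8, 55.2 and 62.8 (-2.61, adjusted p = 1e-06), and COL1A1, the main collagen of connective tissue, fell by 1.41 on the log2 scale (adjusted p = 0.00268). The summed endothelial markers, mostly TIE1, were higher in the same libraries (492 to 654 against 215 to 260; 4 of 6 rose, PECAM1 and ENG did not pass), and their part in the basement membrane genes was not tested.

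LAMB3 stands in a row of genes that rose together. On chromosome 1 it occupies 209614870 to 209652466, followed by G0S2 at 209675420 to 209676388 and HSD11B1 at 209686178 to 209734950. G0S2, an inhibitor of fat breakdown, was at 81.9, 52.1, 67.2 and 52.9 in R1 and 0.0801, 0.156, 0.261 and 0.0525 in control (6.64). HSD11B1, which makes active cortisol, was at 48.5, 72.7, 25.6 and 22.3 against 0, 0.0389, 0.0521 and 0.105 (6.12). Without R1 replicate 2 the log2 fold change of HSD11B1 was 5.81. The next measured genes, looked up after these values were seen, changed far less: C1orf74 rose by 0.56 (adjusted p = 0.00314) and DIEXF did not pass (-0.25, adjusted p = 0.122). Across the 25 largest rises, 103 other measured genes lay within 200 kb, of which 25 rose and 25 fell (median -0.07). Around the 25 largest falls 14 of 121 such neighbours rose and 53 fell (median -0.31), where 21.4% of all rows fell. Several of these falls stand close together. On chromosome 17 EFNB3 (-3.32) and NLGN2 (-2.22) lay within 200 kb of SOX15. On chromosome 12 CDCA3 (-1.29) and GAPDH (-0.93) lay within 200 kb of another of the 25. The pooled count therefore mixes regions and does not describe neighbours of large falls in general. Members of a neighbourhood were not tested as a set.

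Proteases and their inhibitors included 23 rises and 18 falls among 59, or 20 and 22 without R1 replicate 2. MMP1, interstitial collagenase, was at 64.5, 445, 482 and 470 in R1 and 33.9, 26.8, 39.7 and 42.2 in control (3.0, SE 0.66, adjusted p = 0.0023). R1 replicate 1 was far below the other R1 libraries, and without it the fold change was 3.71 (adjusted p = 0.000152). MMP9, a gelatinase, was at 5.63, 17.8, 2.51 and 1.85 against 0.12, 0.195, 0.469 and 0.263 (2.82, adjusted p = 0.00026), or 2.23 (adjusted p = 4.5e-05) without R1 replicate 2. SERPINA1, the inhibitor of neutrophil elastase, was at 25.7, 79.1, 22.2 and 16.1 against 0.281, 0.779, 0.99 and 1.1 (4.58, adjusted p = 1.3e-06). Without R1 replicate 2 its log2 fold change was 4.11. These 3 genes were higher in every R1 library, to unequal degrees. On the other side ADAMTS1, which cleaves proteoglycans, was at 90.9, 139, 143 and 137 against 886, 625, 660 and 636 (-2.46, adjusted p = 5.6e-06). F3, the tissue factor that starts clotting, was at 4.1, 4.91, 4.78 and 5.5 against 32.2, 22.9, 26.4 and 26.8 (-2.37, adjusted p = 2.4e-07). SERPINB9, an inhibitor of granzyme B, had 1 read in all 4 R1 libraries and was at 2.73 to 5.67 in control (ratio of pooled reads 485, 95% counting interval 86.4 to 19196.6).

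Of 42 integrins and partners, receptors for matrix and for other cells, 11 rose and 9 fell, shares near the 22.4% and 21.4% of all rows. ITGB2, the beta chain of leukocyte integrins, was at 6.6, 6.98, 8.85 and 8.16 in R1 and 0.801, 0.467, 0.834 and 0.42 in control (2.86, adjusted p = 1.5e-06). ITGA6, a laminin receptor chain, was at 239, 168, 194 and 241 against 73.5, 77, 81.7 and 91.9 (1.36, adjusted p = 2.5e-06). ITGB8, which frees active TGF-beta, was at 0.777, 1.58, 0.607 and 0.927 against 9.7, 10.5, 6.72 and 10.1 (-2.75, adjusted p = 1.6e-06). The R1 and control libraries did not overlap in any of these 3 genes. Cadherins and protocadherins, which bind like to like between cells, had 5 rises and 10 falls among 22 (median -0.48). CDH13, a cadherin with a lipid anchor, was at 41.4, 57.2, 35.8 and 40 against 112, 117, 109 and 109 (-1.37, adjusted p = 2.1e-06). In the immunoglobulin and junction list 8 rose and 14 fell of 42. The synaptic partner NLGN2 (-2.22, adjusted p = 2e-08) and L1CAM (-1.95, adjusted p = 0.00297) fell, whereas NCAM1 rose (1.66, adjusted p = 0.00456). PVRL1, the nectin-1 junction protein, was at 18.2, 19.1, 25.2 and 25.5 against 2, 1.67, 2.45 and 1.73 (3.18, adjusted p = 4.9e-07).

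**Figure D3:**
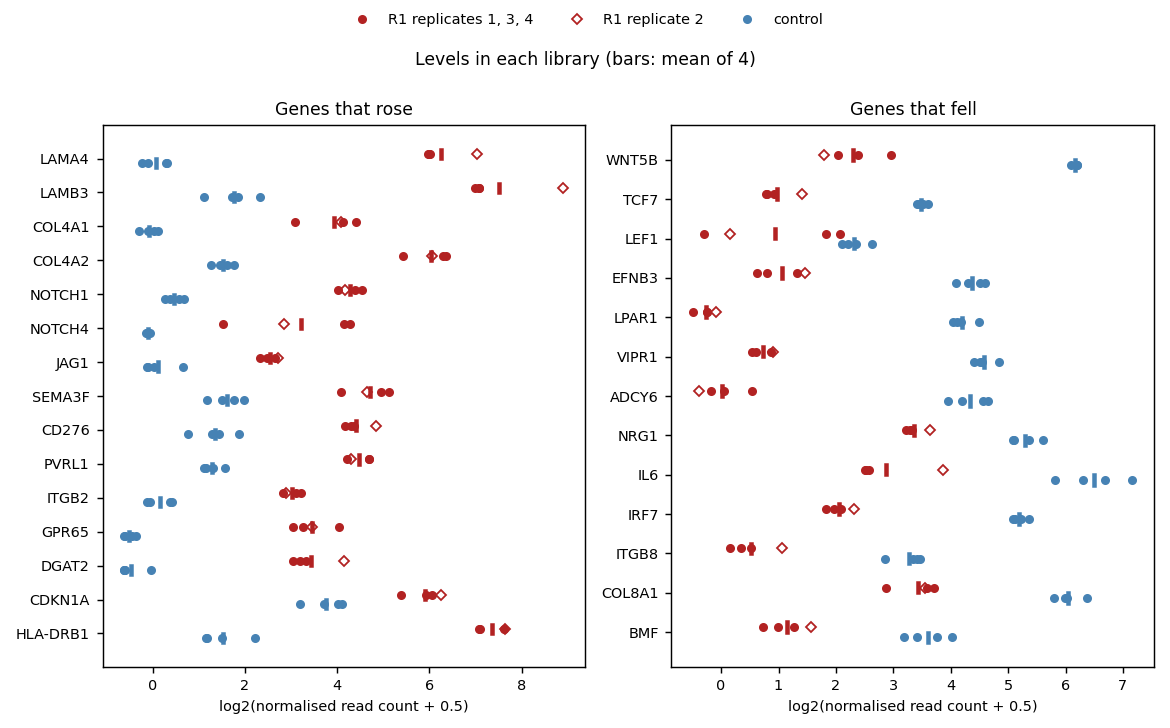
Log2(normalised read count + 0.5) of 15 genes that rose (left) and 13 that fell (right), with R1 in red, R1 replicate 2 as an open diamond, control in blue and bars at the mean of 4 libraries. The genes shown were picked from called genes, whose R1 and control libraries do not overlap here; the diamond lies away from the other R1 libraries in LAMA4, LAMB3 and IL6, among others.

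Notch and Hedgehog genes had 9 rises and 4 falls among 22 (median 0.24), with NOTCH1, NOTCH4, JAG1 and DLL3 among the rises. The target genes HES1, HEY1, HEY2, HEYL and NRARP had no row, and Notch activity was not tested. Notch proteins are receptors that are cut on contact with a ligand on the next cell and then act in the nucleus. NOTCH1 was at 22.9, 17.6, 15.8 and 20.4 in R1 and 0.801, 0.701, 0.99 and 1.1 in control (3.81, SE 0.21, adjusted p = 1e-08). NOTCH4, a receptor of vessels, was at 2.38, 6.76, 17.4 and 19 against 0.401, 0.428, 0.469 and 0.42 (3.31, adjusted p = 4.6e-05). JAG1, a ligand, was at 5.1, 6.1, 4.52 and 5.81 against 0.441, 1.09, 0.521 and 0.42 (2.42, adjusted p = 3.6e-07). The inhibitory ligand DLL3 had 0 reads in control and was at 1.14 to 2.39 in R1, at least 49.5-fold higher when 3 reads over the whole control group are taken as the bound. With values of 0 in control and R2, DLL3 has its row only through R1, so its lack of overlap follows from its being listed. All 4 genes were higher in every R1 library, by amounts that differed among R1 libraries most in NOTCH4. Of the endothelial markers 4 of 6 were higher in the R1 libraries, while PECAM1 and ENG did not pass, and their part in NOTCH4 and JAG1 was not tested.

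The WNT list leaned towards falls, with 7 rises and 15 falls among 35 (median -0.29). WNT5B, a ligand, was at 3.62, 2.98, 7.29 and 4.73 in R1 and 73, 72.2, 73.4 and 67.6 in control (-3.87, SE 0.32, adjusted p = 4.8e-07). Of the DNA-binding partners of beta-catenin, TCF7 was at 1.21, 2.15, 1.25 and 1.39 against 10.4, 10.1, 11.6 and 10.9 (-2.51, adjusted p = 3.5e-08). TCF7L2 was at 15.3, 12.3, 13 and 16.2 against 41.4, 40.8, 29.6 and 32.5 (-1.31, adjusted p = 1.2e-05). LEF1 varied within R1, at 0.315, 0.614, 3.04 and 3.68 against 3.81, 5.65, 4.12 and 4.57 (-1.38, adjusted p = 0.0173), and its call was lost without R1 replicate 1 (adjusted p = 0.0532) and with edgeR (adjusted p = 0.0766). The receptor FZD8 rose (1.25, adjusted p = 0.00042). Of the TGF-beta and BMP genes 9 rose and 10 fell of 40. TGFBI, a matrix protein that TGF-beta induces, was at 187, 256, 170 and 159 against 21, 29.6, 78.6 and 56.5 (2.20, adjusted p = 0.00091), while the ligand TGFB2 was at 4.71, 6.63, 3.68 and 5.38 against 20.4, 18.7, 23.8 and 25.8 (-2.03, adjusted p = 6.1e-05). SMAD1, a messenger of BMP receptors, fell (-1.26, adjusted p = 2.7e-05), and ID1, a target of that route, rose (1.61, adjusted p = 0.00319).

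Guidance cues for growing axons, which tumours use in migration, had 15 rises and 9 falls among 46. SEMA3F, a repellent, was at 16.5, 24.7, 34.2 and 30.7 in R1 and 1.76, 2.34, 2.92 and 3.47 in control (3.09, adjusted p = 2.9e-07). PLXNA4, a semaphorin co-receptor, was at 7.26, 6.98, 3.23 and 3.74 against 0.0801, 0, 0.104 and 0.158 (3.24, adjusted p = 7.8e-06). EFNB3, an ephrin, was at 1.99, 2.24, 1.25 and 1.05 against 16.6, 19.1, 22.4 and 23.7 (-3.32, adjusted p = 3.8e-08). In none of these 3 genes did the R1 and control libraries overlap. KIF21B, CSMD2 and NES, which are not in that list, were higher in R1 too. KIF21B, a neuronal kinesin, was at 20.5 to 32.9 against 0.156 to 0.313 (5.06, adjusted p = 2.3e-10). CSMD2, a synaptic membrane protein, had 0 reads in control and was at 5.68 to 10.6 in R1, at least 236-fold higher against 3 reads over the control group. NES, the intermediate filament nestin of neural precursors, was at 7.81, 15, 17.4 and 14.9 against 0.962, 1.79, 1.41 and 0.735 (3.03, adjusted p = 4e-07).

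G protein coupled receptors had 20 rises and 17 falls among 66, or 16 and 15 without R1 replicate 2. LPAR1, a receptor for lysophosphatidic acid, was at 0.34, 0.439, 0.342 and 0.216 in R1 and 21.9, 15.9, 16.7 and 17.5 in control (-4.47, SE 0.15, adjusted p = 5.2e-11). VIPR1, a receptor that raises cAMP, was at 1.33, 1.36, 0.949 and 1.02 against 22.2, 20.6, 28.2 and 22.9 (-3.85, adjusted p = 3.7e-10). ADCY6, an enzyme that makes cAMP, was at 0.388, 0.263, 0.532 and 0.958 against 14.9, 17.9, 23.1 and 24.5 (-4.33, adjusted p = 5.3e-06). LPAR1 and ADCY6 were thus under 1 in every R1 library. GPR65, which senses acid, was at 15.9, 10.5, 7.78 and 9.08 against 0.281, 0.234, 0.156 and 0.158 (3.96, adjusted p = 3.5e-09), and PTGIR, the prostacyclin receptor, rose (2.26, adjusted p = 4.7e-06).

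Genes of antigen presentation on MHC class II, by which cells show peptides to helper T cells, rose in 10 of 14 measured, and 0 fell (median 1.92). By edgeR 0 fell too, and 1, RFX5, fell by DESeq2 or by limma at an unadjusted p under 0.05. Without R1 replicate 2 the count was 9, since CTSS lost its call. HLA-DRA, the shared alpha chain of HLA-DR, was at 88.4, 127, 127 and 101 in R1 and 3.29, 2.65, 4.95 and 4.73 in control (4.68). HLA-DPB1 was at 27.3, 46.9, 43.6 and 32.7 in R1 and 0.681, 1.4, 2.29 and 1.73 in control (4.27, adjusted p = 4.8e-08). HLA-DMA, which loads peptides, was at 17.5, 23.6, 21.3 and 16.3 against 4.85, 5.3, 8.91 and 7.62 (1.52, adjusted p = 1.8e-05). CD74, the invariant chain, was at 1548.8, 2611.5, 1987.8 and 1507.6 against 623, 686, 1091.6 and 910 (1.21, adjusted p = 0.00019). The chains rose in every R1 library, from a low control level, while CD74 was abundant in both groups. CIITA, the master regulator of these genes, was at 15.5, 14.7, 10.4 and 9.61 against 7.09, 10, 9.9 and 9.24 and did not pass (0.43, adjusted p = 0.0793); it was called without R1 replicate 4 (0.55, adjusted p = 0.0418). RFX5, RFXAP and RFXANK, which bind class II promoters, did not pass either (-0.24, 0.16 and 0.23). The leukocyte marker list rests on CSF1R alone, so the part of immune cells was not tested.

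Because these genes rose together, their promoters were read from RefSeq. Class II promoters are known to carry an inverted CCAAT box (the Y box), bound by NF-Y, downstream of an X box, bound by the RFX proteins. The sequences of the paralogs HLA-DRB1 (chr6:32589849-32590098) and HLA-DRB5 (chr6:32530288-32530537) are shown because both are beta chains of HLA-DR that rose; each gives the 250 bases before the gene start on the minus strand (GRCh38.p14). Capitals mark CCAAT or its complement ATTGG, and AGCAAC, a stretch found in the X box of HLA-DR genes.
HLA-DRB1: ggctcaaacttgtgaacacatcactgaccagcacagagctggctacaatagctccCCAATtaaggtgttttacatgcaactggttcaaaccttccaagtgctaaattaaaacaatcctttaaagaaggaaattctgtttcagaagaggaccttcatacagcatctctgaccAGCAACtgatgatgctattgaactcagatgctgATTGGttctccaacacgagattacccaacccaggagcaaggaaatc
HLA-DRB5: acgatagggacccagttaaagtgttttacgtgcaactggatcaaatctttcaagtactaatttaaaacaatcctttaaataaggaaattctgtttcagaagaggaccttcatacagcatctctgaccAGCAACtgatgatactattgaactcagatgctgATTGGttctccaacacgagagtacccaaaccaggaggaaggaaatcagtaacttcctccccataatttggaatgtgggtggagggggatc
In both windows 27 bases separate AGCAAC from the next ATTGG, and 37 of the 38 bases from the start of the first to the end of the second are equal. HLA-DRB1 was at 135, 200, 195 and 137 in R1 and 1.76, 1.75, 4.17 and 2.36 in control (5.84). HLA-DRB5 was at 8.11, 10.8, 10.3 and 8.87 in R1 and had 3 reads in the control group (ratio of pooled reads 275, 95% counting interval 93.9 to 1335.3). Reads cannot be assigned with certainty between these near copies. Of the 10 risen genes 8 were matched to a promoter, and CCAAT on either strand occurred in 7 of them and AGCAAC in 3. Of the genes on this list that did not rise, RFX5 held both, and RFXAP and RFXANK held neither. Over 27305 promoters of this length the shares were 33% and 10.3%, and 3.68% held both. These matches describe letters and not binding.

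Class I presentation had 10 rises and 2 falls among 24, or 8 and 3 without R1 replicate 2. TAP1, the peptide transporter, was at 35.9, 55, 47.8 and 40.2 against 9.9, 12.9, 10.6 and 12 (1.92, adjusted p = 1.8e-07), with no overlap, and PSMB8, an immunoproteasome subunit, rose by 1.13 (adjusted p = 1.6e-05). Interferon response genes had 20 rises and 11 falls among 57, or 14 and 13 without R1 replicate 2. IRF7, the factor that amplifies type I interferon, was at 3.4, 4.48, 3.76 and 3.03 against 33.4, 34.2, 40.5 and 36.7 (-3.15, adjusted p = 3.9e-08), and MX1, an antiviral GTPase, fell (-1.39, adjusted p = 0.00103). Cytokines and their receptors had 20 rises and 9 falls among 68, or 13 and 13 without R1 replicate 2. IL6, an inflammatory cytokine, was at 5.46, 14.1, 5.16 and 5.22 against 78.9, 55.6, 143 and 102 (-3.63, adjusted p = 7.1e-06). CD276, an inhibitory ligand for T cells of the B7 family, was at 17.5, 28.3, 19.1 and 20.1 against 1.2, 1.95, 3.18 and 2.21 (3.08, adjusted p = 5.8e-07). ADM, the vessel hormone adrenomedullin, was at 3.01, 6.32, 6.07 and 5.07 against 62, 41.7, 186 and 144 (-4.08, adjusted p = 3.7e-06).

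Transcription factors of development had 17 rises and 28 falls among 86 (median -0.22). SOX15 was at 0.413, 0.395, 1.25 and 0.711 in R1 and 51.7, 47.5, 44.1 and 38.6 in control (-5.32, adjusted p = 1.2e-10). TFAP2C, of the AP-2 family of ectoderm and neural crest, was at 0.194, 0.439, 0.114 and 0.0618 against 24.2, 25.2, 27.1 and 29 (-5.28, adjusted p = 9.6e-09). HOXC10, a posterior HOX gene, was at 7.79, 11.1, 16.7 and 15.3 against 0.842, 1.56, 0.938 and 1.05 (3.01, adjusted p = 2.7e-05). SOX15 and TFAP2C were low in all 4 R1 libraries, and HOXC10 was low in all 4 control libraries. TBX3 (1.94, adjusted p = 3.7e-06) and SOX4 (2.22, adjusted p = 5.1e-07) rose, and FOXC2 fell (-2.14, adjusted p = 0.00015). Chromatin regulators fell in 31 of 111 and rose in 9, or 35 and 10 without R1 replicate 2. NCOR1, a corepressor, was at 52.3, 56.5, 41.1 and 56.9 against 148, 144, 123 and 127 (-1.39, adjusted p = 4.4e-07). KDM6B, which removes the polycomb mark from histone H3, was at 14.1, 22.9, 10.2 and 12.4 against 33.7, 37.5, 55.3 and 47.8 (-1.55, adjusted p = 5.3e-05). CHD3, of the NuRD complex, fell by 1.28 on the log2 scale (adjusted p = 4.9e-07), and SMARCD3, a BAF subunit, rose by 2.23 (adjusted p = 3.6e-05).

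**Figure D4:**
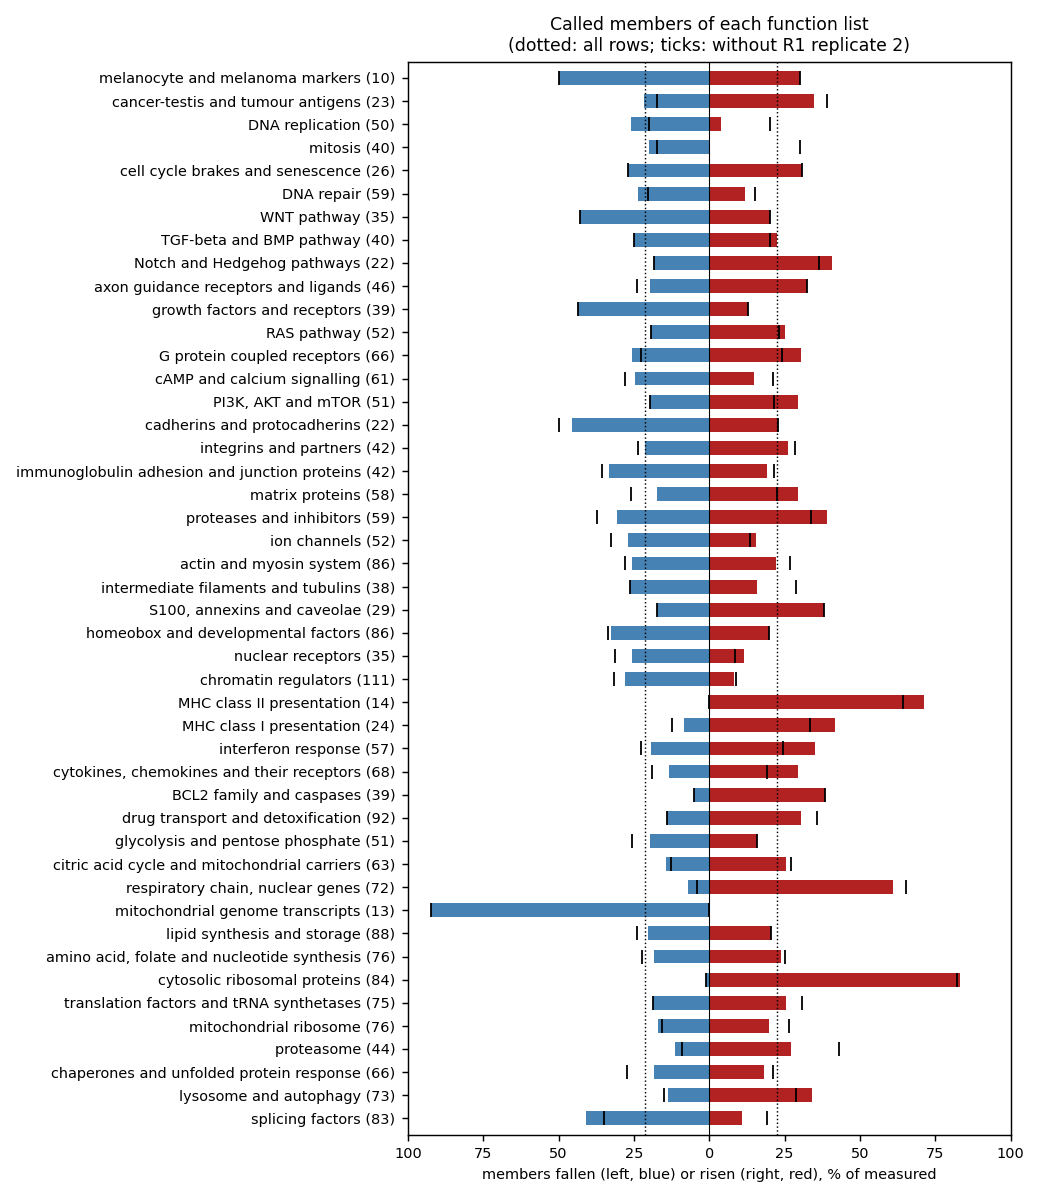
Bars give the percentage of measured members that rose (red, right) or fell (blue, left) in R1 for the function lists shown, which have at least 10 measured genes (number in brackets), dotted lines the percentages over all rows (22.4 and 21.4), and ticks the percentages without R1 replicate 2. Of the lists shown, cytosolic ribosomal proteins and class II genes rose most often, and mitochondrial genome transcripts fell most often. For mitosis and DNA replication the ticks of the rises lie far from the bars.

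In the cell body, MYH10, a non-muscle myosin motor, was at 0.121, 0.0439, 0 and 0 in R1 and 70, 73.8, 76.6 and 67.3 in control (-7.07, adjusted p = 3e-13). SDPR, a caveolar coat protein also called cavin-2, was at 0.0309 to 0.114 against 48.5 to 52.8 (-6.48, adjusted p = 5.5e-12). Of 86 actin and myosin genes 19 rose and 22 fell, shares near the 22.4% and 21.4% of all rows. TPM1, tropomyosin 1, fell (-1.44, adjusted p = 7e-06), and GSN, which severs actin filaments (1.30, adjusted p = 0.00279), and RHOB (1.13, adjusted p = 0.00017) rose. Among S100 proteins, annexins and caveolar genes 11 rose and 5 fell of 29. S100A4, tied to motility, was at 89.5, 137, 107 and 69.9 against 23.3, 32.1, 40.7 and 31.3 (1.63, adjusted p = 0.00061), and ANXA3 was at 0.777 to 1.67 against 11.5 to 14.3 (-2.92, adjusted p = 2.6e-08).

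Energy metabolism divided by genome. Of 13 protein genes of the mitochondrial genome 0 rose and 12 fell (median -1.81), the exception being MT-ND6 (-0.20, adjusted p = 0.408). By edgeR, by DESeq2 and by limma at an unadjusted p under 0.05, the rises were 0 as well. MT-CO2, a subunit of cytochrome oxidase, was at 3445.3, 2225.0, 3356.0 and 2886.8 in R1 and 7380.7, 11678.2, 17532.6 and 18836.0 in control (-2.15, adjusted p = 0.00033). Nuclear genes for the same complexes rose in 44 of 72 and fell in 5 (median 0.43). ATP5E, a small subunit of ATP synthase, was at 270, 247, 350 and 255 against 103, 94.3, 101 and 89.4 (1.51, adjusted p = 3.1e-07). NDUFB2, of complex I, was at 62.4, 55, 89.6 and 61 against 23.8, 19.8, 21.3 and 19.9 (1.61, adjusted p = 2.8e-06). The mitochondrial genome took 2.39% ± 0.515 (SD, n = 4) of reads in R1 and 8.18% ± 2 in control. Glycolysis and pentose phosphate genes had 8 rises and 10 falls among 51. LDHA, which makes lactate, was at 779, 1219.5, 1131.5 and 1024.9 against 1467.1, 1619.4, 2606.6 and 2602.1 (-0.97, adjusted p = 0.0015). GAPDH (-0.93, adjusted p = 0.00768) and PKM (-0.78, adjusted p = 0.00108) fell, and PGM2, a phosphopentomutase, rose (1.25, adjusted p = 7.1e-06).

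Among 88 lipid genes 18 rose and 18 fell, shares near those of all rows (22.4% and 21.4%). DGAT2, which makes triglyceride, was at 9.61, 17.2, 8.73 and 7.72 in R1 and 0.16, 0.156, 0.156 and 0.473 in control (3.90, adjusted p = 6.6e-07). PNPLA2, the lipase ATGL that G0S2 inhibits, was at 67, 71.4, 102 and 79.3 against 207, 199, 263 and 222 (-1.48, adjusted p = 5.8e-06). In both genes the groups did not overlap. SCD, which desaturates fatty acids, was at 319, 723, 643 and 704 against 999.7, 979, 2440.2 and 2393.7 (-1.44, adjusted p = 0.00357). LIPE, another lipase, rose (1.88, adjusted p = 8.9e-06). In amino acid and nucleotide synthesis 18 rose and 14 fell of 76, also near those shares. BCAT1, which handles branched amino acids, was at 22.3, 43.1, 25.5 and 31.6 against 6.73, 9.27, 12.4 and 13.2 (1.51, adjusted p = 0.00193). NMNAT2, which makes NAD in neurons, was at 13.8, 13.3, 14.5 and 15.8 against 1.48, 1.25, 2.03 and 1.05 (2.95, adjusted p = 2e-07). GDA, guanine deaminase, had 3 reads in the R1 group and was at 31.9 to 45.9 in control (ratio of pooled reads 1563.5, 95% counting interval 535 to 7585.3).

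Drug transport and detoxification genes had 28 rises and 13 falls among 92 (median 0.19). AKR1C3, a steroid and aldehyde reductase, was at 8.11, 17.6, 7.21 and 6.73 in R1 and 0.882, 1.21, 3.33 and 2.89 in control (2.04, adjusted p = 0.00093). MGST1, a membrane glutathione transferase, was at 48.1, 39.8, 53 and 50.1 against 134, 117, 141 and 136 (-1.46, adjusted p = 9.8e-07). Both separated the groups without overlap. Of 66 chaperone genes 12 rose and 12 fell, shares near those of all rows (22.4% and 21.4%). Without R1 replicate 2 the chaperone counts were 14 and 18. HSPB8, a small heat shock protein, was at 18.1, 36.5, 33.8 and 30.2 against 2.85, 4.36, 3.18 and 3.68 (2.87, adjusted p = 1.3e-07).

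Ribosomal protein genes rose in 70 of 84 and fell in 1, RPS26 (-0.77, adjusted p = 0.00929), with a median of 0.75. RPS18 was at 2966.2, 3788.0, 4149.5 and 3210.3 in R1 and 827, 811, 1094.2 and 935 in control (1.94, adjusted p = 3.1e-07). Their share of reads was 10.5% ± 1.04 (SD, n = 4) against 5.88% ± 0.34. Splicing factors went the other way, with 9 rises and 34 falls among 83 (16 and 29 without R1 replicate 2). CELF2, a regulator of exon choice, was at 2.48, 2.37, 1.14 and 2.16 against 7.77, 6.43, 6.36 and 6.72 (-1.56, adjusted p = 0.00032). MBNL2 (-1.30, adjusted p = 0.00057) and the spliceosome subunit SF3B4 (-1.0, adjusted p = 0.0002) fell, and SNRPE, a core snRNP protein, rose (1.58, adjusted p = 1.2e-05). Transcript length moved with these groups. Among genes with a matched transcript under 1000 nt 41.5% rose and 15.5% fell (median 0.30), and from 8000 nt 18.5% rose and 24.6% fell (median -0.06). With length and GC content fitted out in each library, an alternative added after these values were seen, 2947 genes rose (24% of 12262) and 2926 fell (23.9%). Ribosomal proteins then had 65 rises and 4 falls, respiratory genes 37 and 9, splicing factors 9 and 35, and class II genes 10 and 1. In the mitochondrial ribosome list the counts went from 15 rises and 13 falls among 76 to 13 and 25.

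Chromosomes differed in the share of their genes that rose or fell. Chromosome 20 had 110 rises (34%) and 27 falls (8.33%) among 324 genes, chromosome 6 had 31.9% and 11.7%, and chromosome 1 had 29.6% and 13.6%. On chromosome 18 11.1% rose and 38.3% fell, on chromosome 16 11.6% and 36.8%, on chromosome 15 11.8% and 35.5%, and on chromosome 21 9.65% and 31.6%. The medians ran from -0.32 on chromosome 18 to 0.20 on chromosome 20. Whole chromosomes were counted, so regions within a chromosome are not shown. A gain or loss of chromosome copies was not measured in these libraries, and differences in copy number between the groups and changes in transcription cannot be told apart.

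**Figure D5:**
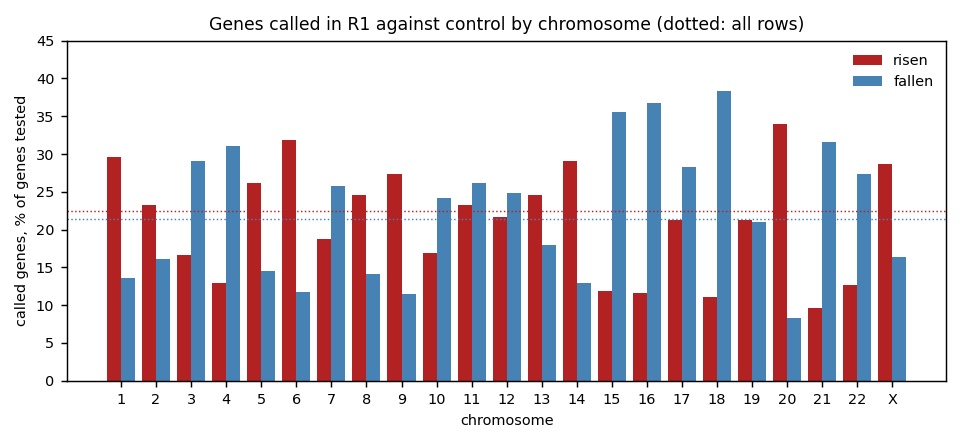
Percentage of tested genes on each chromosome that rose (red) or fell (blue) in R1 against control, with dotted lines at the percentages over all rows (22.4 and 21.4). Rises are most frequent on chromosome 20 (34%) and falls on chromosome 18 (38.3%).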

How the data were processed

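Total RNA from RNeasy mini columns was made into TruSeq v2 libraries, per the labels' protocols. STAR, edgeR and the build GRCh38 appear in the submitters' processing notes; versions are not given in the sources used here. Each deposited file holds 1 normalised signal value per gene symbol. The scaling of the libraries equals library size adjusted by TMM factors, up to a constant. All values (100%) were whole multiples of 1 step per library within 0.001 reads, so read counts were recovered, and the text's depths are sums of these. The unit was not the read counts assumed in the planned design, so limma on log2 values replaced the count test, with edgeR 4.0.16 and DESeq2 1.42.0 on the recovered reads as alternatives.

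Log2(value + 0.5) of all 12 libraries entered 1 limma 3.58.1 fit (R 4.3.3, empirical Bayes with trend) with 3 group means. P-values are two-sided and Benjamini-Hochberg adjusted over 12931 rows (12929 symbols; 2 stand on 2 rows). The procedure was tested on simulated data. The added 0.5 makes fold changes of low genes smaller than ratios of means. Folds against 3 reads or fewer use pooled reads with 95% Clopper-Pearson intervals, which reflect counting error alone, as reads copied by PCR are not separate molecules. No 2 libraries were identical. The precision set by depth corresponds to a bound of 3 reads at values of 0.0728 to 0.158.

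Gene positions and transcript lengths came from GENCODE v29, and promoter sequences from RefSeq (GRCh38.p14). Of 12931 rows 11836 matched by symbol and 426 by an older symbol.

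Genes were named by rule: the 25 largest rises and 25 largest falls with a mean of at least 5, ranges that do not overlap and a call that holds without R1 replicate 2; up to 4 rises and 4 falls of each function list with a mean of at least 1; all members of lists of at most 20 genes; the 10 largest calls lost and 10 gained without R1 replicate 2; the 10 genes in which it lay farthest above and below the other R1 libraries; and fixed genes of the drug pathways. Not all of these are printed, and a few genes are not reported here. The comparison, gene lists and rule were chosen with earlier results of these data known. Libraries were left out in turn, and other alternatives changed the pseudocount, filter, scaling, libraries fitted and test.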

Additional observations from a re-analysis of the deposited data

Results flagged for a closer look

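In the groups of 4 libraries behind the named genes and 10 list scores (362 groups), 30 (8.29%) held a library whose gap to the rest exceeded Dixon's 95% limit, which chance alone passes in about 1 of 20 groups. R1 replicate 2 was that library in 19. Some of these genes were named because that library lay far from the other R1 libraries in them or because their call changed without it, so neither the 8.29% nor the 19 can be read against the chance rate. R1 replicate 2 was high in NDRG1 (1540.4, others 50.1 to 64.2), CA9 (127, others 10.5 to 20.7), C3 (102, others 5.01 to 11.1), ICAM1 (121, others 11.5 to 19.9), HSPA1A (75.2, others 11.7 to 12.9), VGF (362, others 57 to 104), IL1A (42.8, others 13 to 17.9) and IL6 (14.1, others 5.16 to 5.46). It was also high in LAMA4 (130, others 62.7 to 64.2), LAMB3 (480, others 126 to 135), SERPINA1 (79.1, others 16.1 to 25.7), AKR1C3 (17.6, others 6.73 to 8.11), PECAM1 (4.96, others 1.55 to 1.86) and SERPINB9 (0.0439, a single read, others 0). The mean log2 level of cytokines, chemokines and their receptors was 5.00 there and 4.26 to 4.27 in the other R1 libraries. The same library was low in GINS2 (8.95, others 21 to 23.1), PLK2 (41.6, others 65.2 to 67), the DNA replication score (5.35, others 6.12 to 6.15) and the mitosis score (5.55, others 6.60 to 6.70).

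R1 replicate 1 was low in MMP1 (64.5, others 445 to 482) and ADAMTS1 (90.9, others 137 to 143), and R1 replicate 3 in the chromatin regulator score (5.45, others 5.57 to 5.59). In the control group, replicate 1 stood apart in ADAMTS1 (886, others 625 to 660), TNFRSF10B (66.2, others 76.2 to 77.7) and PLK2 (194, others 149 to 153). Control replicate 2 did so in JAG1 (1.09, others 0.42 to 0.521) and OAS2 (4.98, others 3.2 to 3.49), replicate 3 in RHOB (32.8, others 22.7 to 23.6) and DUSP2 (0.0521, a single read, others 0), and replicate 4 in DGAT2 (0.473, others 0.156 to 0.16).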

How the results depend on the processing

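Across 25 alternatives the counts of genes higher and lower in R1 (2900 and 2767) stayed within 1.5 times the values given. Among them TMM scaling repeats the scaling of the deposited values, so its counts were the same by construction. Leaving out 1 library at a time gave 2524 to 3020 higher and 2400 to 2857 lower, and 673 to 745 and 627 to 747 changed over 2-fold. The rises over 2-fold numbered 699, but 456 with a pseudocount of 2 and 392 among genes with a mean of at least 5, where the falls over 2-fold went from 662 to 426; the filter also tests fewer genes, and the pseudocount shrinks the folds of low genes by its construction. By edgeR 2964 genes rose and 2681 fell, and by DESeq2 2938 and 2931. Without mitochondrial genome and ribosomal protein genes, rescaled, an alternative added after the data were seen, the counts were 3117 and 2411. Replicate numbers did not pair the libraries. Over rows with a mean of at least 5, the correlation of deviations from the group means was 0.43, -0.359, 0.149 and -0.171 for the same-numbered pairs 1 to 4. With the replicate block the counts were 2729 and 2593, and 694 and 655 over 2-fold.

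Of 150 called genes among the 171 checked by name, 143 kept their call and direction in every alternative that gave a value, and 7 (DUSP1, LEF1, VGF, FEZ1, IL1A, CTSS and OAS2) lost it in at least 1. Another 10 genes were called only in some alternatives. No named gene changed direction while called. The limits are the unknown origin of the replicates, R1 replicate 2, partial marker lists, and depth, since genes with a few reads in 1 group give folds with wide counting intervals.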
